A study of Mus musculus with 2 samples.

Results

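Natural killer (NK) cells read their targets through a family of surface receptors, and 8 receptor genes were followed here together with Tyrobp, the gene of an adaptor that several such receptors need to signal. The receptor genes were Ncr1, Klrb1c, Klrk1, Klrc1, Klrd1, Klre1, Klra7 and Klra8. The members were chosen by gene symbol, each symbol named a single row, and the 9 rows came from the 56941 genes of each count table. Tumours were grown under the skin of C57BL/6 mice from MC38, a line of mouse colon adenocarcinoma by its label, with the genotype given as WT. In the first group the injected MC38 cells were a stable pool transduced by lentivirus with SPP1, the gene of the secreted glycoprotein osteopontin. In the second group the pool carried a control vector. The protocol states that SPP1 protein was checked by Western blot in the pool. All mice received anti-PD-1, which blocks a checkpoint receptor of T cells, in doses of 10 mg/kg and 2 times per week from day 7 for 2 weeks, so both groups are treated tumours and no untreated tumour enters any comparison.

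The tumour of 1 mouse per group was measured by single-cell RNA sequencing, so the comparisons set 1 library against the other without replicates, and no test across animals could be made. Intervals are exact 95% intervals that cover counting error only. The libraries labelled SPP1 and vector held 14029 and 14317 cell barcodes, with a median of 10218 and 10277 unique molecular identifiers (UMIs) per barcode. They shared 93 barcode sequences, none of which belonged to a T, NK or dendritic cell-like cell. Spp1 itself was 250.8 CPM in the library labelled SPP1 and 285 CPM in the library labelled vector over all kept cells (log2 ratio -0.19, -0.21 to -0.17), which goes against the labels. In the large compartment without a cell type name, described below, Spp1 was 127.5 and 134.6 CPM (-0.08, -0.11 to -0.05), also against the labels. Within macrophage/monocyte-like cells it was 2529 and 2254 CPM (0.17, 0.13 to 0.20), in the direction of the labels. Within NK-like cells it was 9420 and 2633 CPM (1.84, 1.70 to 1.98), in the same direction. The construct was put into the injected MC38 cells, and whether cells of these classes carry it was not tested. The libraries are therefore named by their labels throughout. A construct read at another gene name would not be counted at Spp1. CPM is a gene's UMI count relative to all UMIs of the named class of cells in that library, on the usual scale of that unit.

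Cells were clustered without the members and without any other Klr gene, and the clusters were named from marker lists that hold none of the members. NK-like cells numbered 29 in the library labelled SPP1 and 36 in the library labelled vector, CD8 T-like cells 44 and 61, regulatory T-like cells 12 and 30, macrophage/monocyte-like cells 639 and 828, and dendritic cell-like cells 24 and 46. Most other cells, 10371 and 10306, formed a large compartment without a cell type name, which served as the background of free RNA for the members. Its cells were deeper than T and NK-like cells, and whether it gives the level of free RNA in shallower cells was not tested. In NK-like cells 11 and 12 of the 12 NK markers were detected, Cd3e, Cd8a, Cd8b1 and Csf1r had 0 UMIs in both libraries, and S1pr5 was at 0 in the library labelled SPP1. The T cell list summed to 815 and 790 CPM there and the macrophage list to 497 and 608 CPM. In CD8 T-like cells the T cell list summed to 6851 and 7185 CPM and the macrophage list to 66.4 and 162 CPM. The NK list, which holds cytotoxic genes that CD8 T cells also use, summed to 11877 and 9066 CPM in NK-like cells and to 6785 and 9085 CPM in CD8 T-like cells, so in the library labelled vector its sum did not separate these classes.

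An NK cell integrates activating and inhibitory receptors. Activating receptors have short tails and borrow tyrosine motifs from adaptors, which are Tyrobp (DAP12), Hcst (DAP10), Fcer1g and Cd247. Inhibitory receptors carry a tyrosine motif of their own that recruits the phosphatases made by Ptpn6 and Inpp5d. In tumours these receptors meet stress-induced ligands and MHC class I molecules, and some of them are also used by activated CD8 T cells, while Tyrobp serves many receptors of macrophages.

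The motifs can be read in the coding sequences of the members, shown 5′ to 3′ with the tyrosine codons of the motif in capitals. Tyrobp is a short gene on chromosome 7, + strand, with 114 codons, and its paired activating motif (ITAM) has tyrosines at codons 92 and 103 of this stretch from codon 90 to codon 108.
Tyrobp: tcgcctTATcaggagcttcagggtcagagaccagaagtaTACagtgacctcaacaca
Klrc1 and Klra7, both on the - strand of chromosome 6, encode inhibitory receptors, and the inhibitory motif (ITIM) of each has its tyrosine at codon 8 of the stretch from codon 3 to codon 14.
Klrc1: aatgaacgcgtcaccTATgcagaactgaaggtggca
Klra7: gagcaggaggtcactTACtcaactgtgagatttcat
Klra8 encodes an activating receptor of the same gene family that signals through the Tyrobp product, and it is shown because its stretch opposite the motif of Klra7 has no tyrosine codon. Here the capitals mark the bases that differ from Klra7.
Klra8: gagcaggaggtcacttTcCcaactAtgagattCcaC
The stretches differ at 5 of 36 bases, A23T, T25C, G31A, T39C and T42C, with the base of Klra7 first, that of Klra8 last and positions counted from 1 at the first base of the coding sequence. A23T replaces the tyrosine codon by a phenylalanine codon. These stretches come from the GENCODE vM21 transcripts. The paired motif was found in Tyrobp and in no receptor member.

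The other 7 members lie in 1 gene cluster on chromosome 6, where Klre1, Klrd1, Klrk1 and Klrc1 follow each other with Klrc3 and Klrc2 between Klrk1 and Klrc1, and Ncr1 and Tyrobp lie on chromosome 7. Ncr1 and Klrk1 are shown with the 250 bases before their start sites, because both encode activating receptors with different patterns. Among the named classes Ncr1 was found mainly in NK-like cells, while Klrk1 was also found in CD8 T-like cells. Capitals mark matches on either strand of TGTGGT, a core bound by RUNX factors, TCACAC, a core bound by T-box factors such as Eomes and Tbx21, and CCGGAA, a core bound by ETS factors. The sequences are from RefSeq (GRCm38.p6). The files name GRCm39, so these coordinates belong to the RefSeq table only.
Ncr1, chr7:4337465-4337714, + strand: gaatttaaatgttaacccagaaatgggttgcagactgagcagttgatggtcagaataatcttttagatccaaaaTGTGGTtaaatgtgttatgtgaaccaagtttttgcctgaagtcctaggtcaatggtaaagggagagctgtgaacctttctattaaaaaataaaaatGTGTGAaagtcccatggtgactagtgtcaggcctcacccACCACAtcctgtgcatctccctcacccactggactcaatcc
Klrk1, chr6:129623865-129624114, - strand: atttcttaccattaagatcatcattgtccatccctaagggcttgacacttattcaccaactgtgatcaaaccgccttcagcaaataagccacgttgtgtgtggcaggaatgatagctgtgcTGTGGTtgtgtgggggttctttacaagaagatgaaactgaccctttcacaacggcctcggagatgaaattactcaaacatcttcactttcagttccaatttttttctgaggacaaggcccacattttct
The Ncr1 window held 2 matches of the RUNX core and 1 of the T-box core, and the Klrk1 window held 1 and 0. This pair does not stand for the patterns of the members. Klrb1c, Klra7 and Klra8, also found mainly in NK-like cells, had no T-box match, and Klra7 and Klra8 no RUNX match. A window of Klre1, found in NK-like and CD8 T-like cells, held 1 T-box match. The RUNX core was present in 6 of 11 promoter windows matched to members and in 14.0% of all 32851 windows, the T-box core in 3 of 11 and in 12.3%, and the ETS core in 0 of 11 and in 12%. Some of the 11 windows overlap, because a gene can have several start sites. The Ncr1 windows held the same matches, which were thus counted more than once. Tyrobp and Klrd1 had no window. A match describes the letters and is no evidence of binding.

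Counting may be uncertain where members have near copies. Of all stretches of 50 bases in the transcripts, 38.6% in Klrc1, 33.1% in Klra8, 17.0% in Klrb1c, 12.3% in Klra7 and 0.280% in Klre1 also occurred in another gene, and none did in Ncr1, Klrk1, Klrd1 or Tyrobp. Klrc1 shared most with Klrc2, which encodes an activating partner of the Klrd1 product and was 81.0% identical to it over the aligned coding sequence. Klra7 and Klra8 were 74.0% identical (622 of 840 positions). How reads that match several genes were treated is not given in the sources used here, so values of Klrc1, Klra7, Klra8 and Klrb1c carry that uncertainty.

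The members fell into 3 patterns over the classes. Among the named classes, Ncr1, Klrb1c, Klra7 and Klra8 were found mainly in NK-like cells. Klrk1, Klrc1, Klrd1 and Klre1 were found in both NK-like and CD8 T-like cells, with Klrc1 higher in CD8 T-like cells. Tyrobp was found in NK-like and myeloid cells. None of these patterns was used to name the cells. A mixed set of cells, described below, held 44.8% of Ncr1, 26.7% of Klrb1c and 37.2% of Klra7 UMIs in the library labelled SPP1. In the library labelled vector these shares were 3.67%, 5.48% and 14.0%.

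Ncr1 (ENSMUSG00000062524) encodes NKp46, an activating receptor that couples to the Fcer1g and Cd247 products. It was 151 CPM (99.4 to 219) in NK-like cells of the library labelled SPP1 and 399 CPM (320 to 492) in those of the library labelled vector. Its UMIs numbered 27 in 14 of 29 cells and 88 in 25 of 36 cells. CD8 T-like cells held 0 and 2 Ncr1 UMIs, where 0 of 44 cells allows a share of cells with a UMI of up to 6.82% by a limit of 3 counts, and macrophage/monocyte-like cells held none, which allows up to 0.469% and 0.362%. These limits concern detection, and cells without a UMI may still express the gene. The large compartment held 0.0141 and 0.0561 CPM. Klrb1c (ENSMUSG00000030325) encodes NK1.1, an activating lectin-like receptor used to mark NK cells in C57BL/6 mice, and it was 140 and 222 CPM in NK-like cells. CD8 T-like cells had 2 and 7 Klrb1c UMIs. A UMI of Klrb1c was found in 48.3% of NK-like cells of the library labelled SPP1 and in 58.3% of those of the library labelled vector.

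Klra7 (ENSMUSG00000067599) encodes Ly49G, an inhibitory receptor for MHC class I, and Klra8 (ENSMUSG00000089727) encodes Ly49H, an activating receptor for a protein of mouse cytomegalovirus. Klra7 was 302 CPM (227 to 393) in NK-like cells of the library labelled SPP1 and 191 CPM (137 to 258) in those of the library labelled vector. These levels came from few cells, 10 and 8, and the top 3 cells carried 77.8% and 69.0% of Klra7 UMIs. Klra8 was 212 and 209 CPM in 6 and 9 cells, with 81.6% and 69.6% of its UMIs in the 3 highest. CD8 T-like cells had 0 and 1 Klra7 UMIs and 0 and 2 Klra8 UMIs, and macrophage/monocyte-like and dendritic cell-like cells had none. The Ly49 genes were thus detected in a minority of NK-like cells, and a positive cell could hold up to 17 Klra7 UMIs or 20 Klra8 UMIs. Detection depends on depth, and cells without a UMI may still express these genes.

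Klrd1 (ENSMUSG00000030165) encodes CD94, the chain that pairs with NKG2A and NKG2C. It was 1206 CPM (1051 to 1378) and 1294 CPM (1148 to 1453) in NK-like cells, and 1062 CPM (917 to 1223) and 1254 CPM (1105 to 1417) in CD8 T-like cells, in the libraries labelled SPP1 and vector. The intervals of both classes overlapped in each library. Klrc1 (ENSMUSG00000030167) encodes NKG2A, the inhibitory chain that binds the non-classical class I molecule Qa-1 together with CD94. It was higher in CD8 T-like than in NK-like cells in both libraries. Its levels were 603 CPM (495 to 727) and 945 CPM (817 to 1088) in CD8 T-like cells, beside 201 CPM (141 to 278) and 522 CPM (431 to 627) in NK-like cells, and the intervals of the classes did not overlap in either library, which held in that direction for no other member. Klre1 (ENSMUSG00000050241), whose product pairs with those of Klri1 and Klri2, was 581 and 595 CPM in NK-like cells and 470 and 632 CPM in CD8 T-like cells.

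Klrk1 (ENSMUSG00000030149) encodes NKG2D, an activating receptor for the stress-induced ligands of the Raet1, H60 and Ulbp1 genes. It was 352 CPM (270.3 to 450.1) and 449 CPM (365 to 547) in NK-like cells, and 431 CPM (341 to 538) and 480 CPM (389.7 to 585) in CD8 T-like cells, with overlapping intervals. In dendritic cell-like cells it was 120 and 124 CPM, and in macrophage/monocyte-like cells 6.54 and 9.11 CPM. The order of its levels was thus NK-like and CD8 T-like, then dendritic cell-like, then macrophage/monocyte-like, then the large compartment at 0.0634 and 0.0772 CPM, with intervals of neighbouring steps that did not overlap after the first pair. Regulatory T-like cells held no member UMI except 1 of Klrc1 in the library labelled vector, at 12 and 30 cells. The remaining T and NK-like cells, 33 and 56 without a closer name, held Klrk1, Klrc1, Klrd1 and Klre1 at 313 to 810 CPM and Tyrobp at 29.7 and 32.2 CPM.

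**Figure D1:**
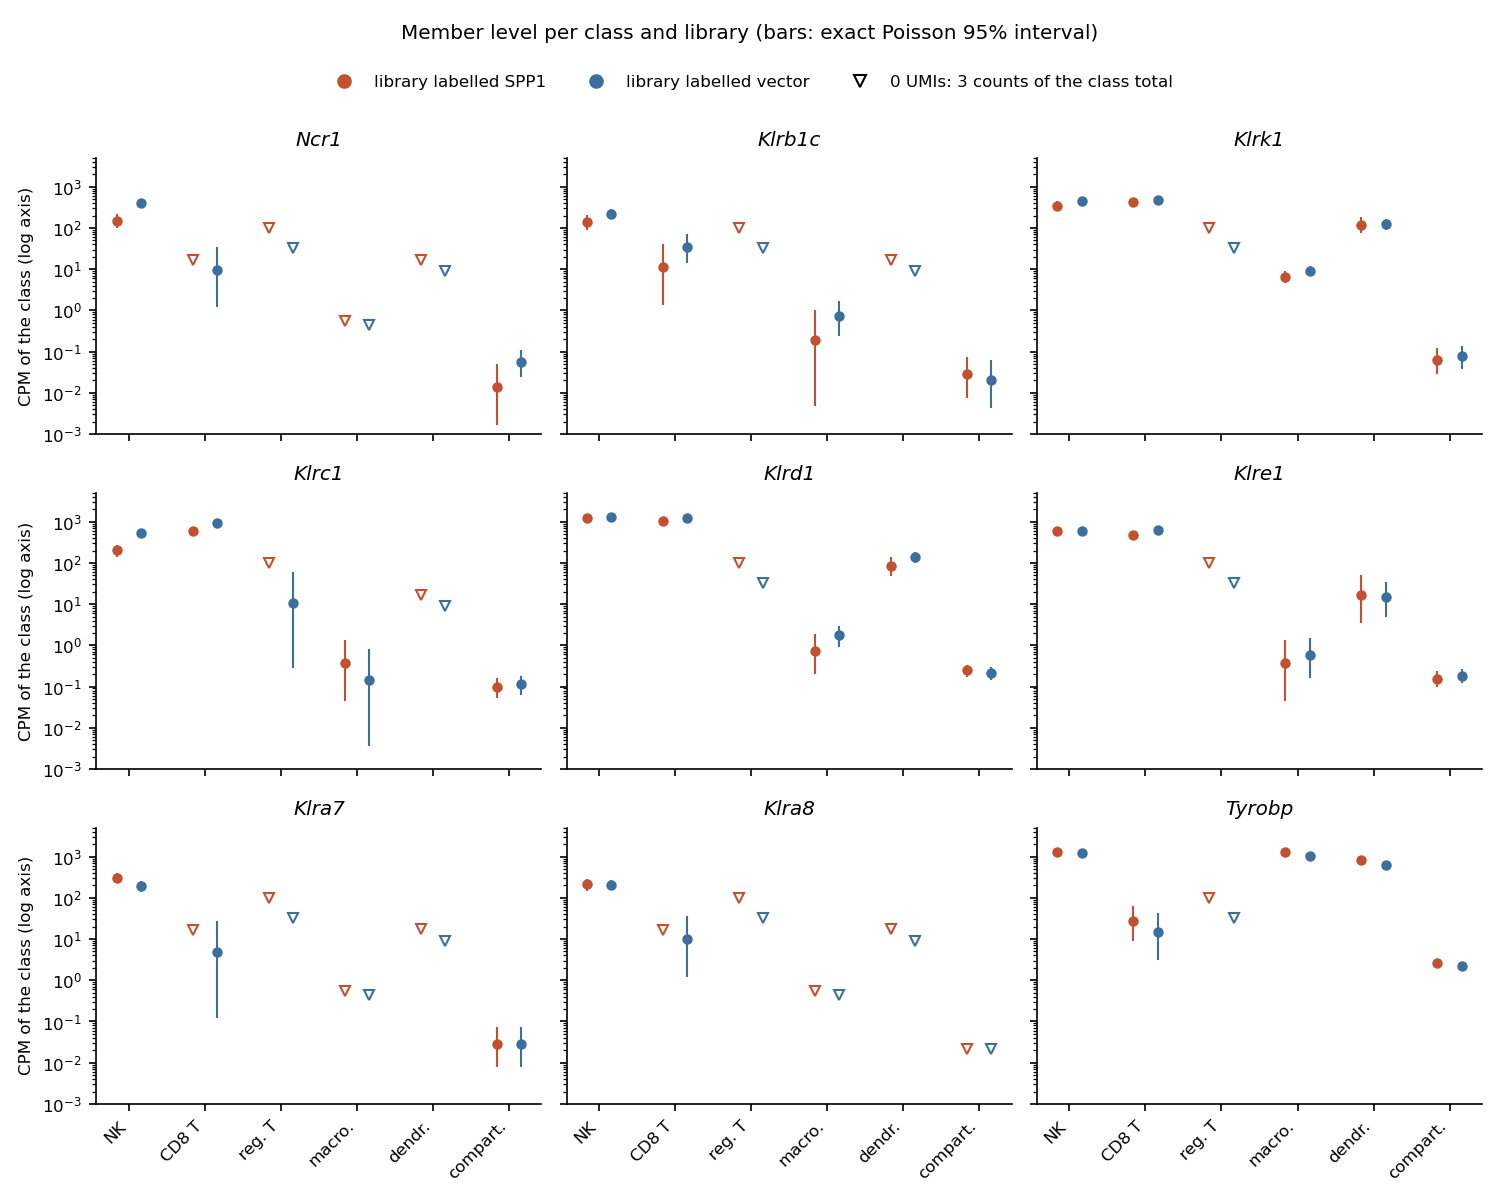
Level of each member in CPM (log axis) in 6 classes of cells, with points for the libraries labelled SPP1 and vector and bars for the exact Poisson 95% interval. Ncr1, Klrb1c, Klra7 and Klra8 peak in NK-like cells, Klrk1, Klrc1, Klrd1 and Klre1 in NK-like and CD8 T-like cells, and Tyrobp in NK-like, macrophage/monocyte-like and dendritic cell-like cells.

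Tyrobp (ENSMUSG00000030579) separated NK-like from CD8 T-like cells. It was 1323 CPM (1160 to 1503) in NK-like cells of the library labelled SPP1 and 1194 CPM (1054 to 1347) in those of the library labelled vector. In CD8 T-like cells it was 27.6 CPM (8.98 to 64.5) and 14.7 CPM (3.03 to 42.9), from 5 and 3 UMIs in 4 of 44 and 3 of 61 cells. Tyrobp was detected in 93.1% and 97.2% of NK-like cells. The shares were 9.09% and 4.92% in CD8 T-like cells, beside 3.22% and 2.81% in the large compartment, whose median depth was 11886 and 12313.5 UMIs against 3752 and 3410 in CD8 T-like cells. Unnamed cells of low depth formed a low-UMI set of 2 clusters. Tyrobp was 59.5 and 40.5 CPM in its larger cluster, above the CD8 T-like level, and 6.15 and 5.13 CPM in the other. Whether Tyrobp in CD8 T-like cells exceeds free RNA was therefore not settled. After every cell was thinned to 1000 UMIs, 70.8% of 24 and 77.8% of 36 NK-like cells still held a Tyrobp UMI, and 0.213% and 0.244% of compartment cells did. Macrophage/monocyte-like cells held 79.5% and 81.2% of all Tyrobp UMIs of kept cells, and NK-like cells 2.71% and 2.93%.

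Co-detection was next read in single cells. An NK-like cell carried on average 4.28 ± 1.60 of the 8 receptors in the library labelled SPP1 and 5.25 ± 1.44 in the library labelled vector (SD over 29 and 36 cells, which are not replicates). The highest cells carried 7 and 8. CD8 T-like cells carried 2.91 ± 1.20 and 3.05 ± 1.15, with at most 4 and 5 (44 and 61 cells). At least 2 receptors were detected in 96.6% and 100% of NK-like cells. The corresponding CD8 T-like shares were 84.1% and 88.5%. The mean number moved with depth, as NK-like cells at or above the median of 4899 UMIs carried 5.33 ± 1.38 receptors (33 cells) and those under it 4.28 ± 1.61 (32 cells). The median depth of NK-like cells was 3726 UMIs in the library labelled SPP1 and 5434 in the library labelled vector, and at 1000 UMIs per cell the means were 2.46 and 2.53.

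**Figure D2:**
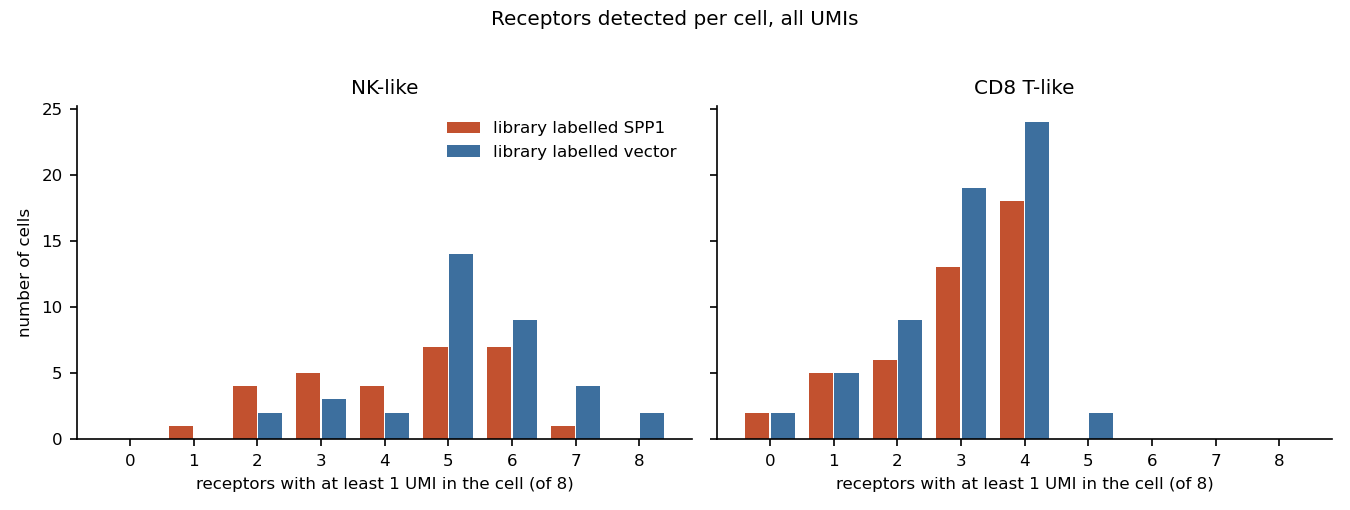
Number of the 8 receptors with at least 1 UMI per cell (horizontal axis) against the number of cells, for NK-like and CD8 T-like cells of the libraries labelled SPP1 and vector. NK-like cells reach 7 and 8 receptors, CD8 T-like cells 4 and 5.

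The adaptor was seen with a receptor in most NK-like cells. A receptor and Tyrobp were found together in 27 of 29 and 35 of 36 NK-like cells. All 29 and 36 of these cells had a receptor, so these counts are those of Tyrobp detection alone. Of CD8 T-like cells with a receptor, 4 and 3 had Tyrobp and 38 and 56 had none. Taken over both libraries, 62 of 65 NK-like cells had a receptor together with Tyrobp.

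Klrc1 and Klrd1, the chains of the CD94-NKG2A receptor, were detected together in 35 of 65 NK-like cells, Klrc1 alone in 5, Klrd1 alone in 21 and neither in 4. By library, both were found in 9 of 29 cells and 26 of 36 cells, and Klrd1 alone in 13 and 8. In CD8 T-like cells Klrc1 was found in 73 of 84 cells with Klrd1 (86.9%) and in 10 of 21 without (47.6%), at median depths of 3781 and 1588 UMIs. Klrk1 and Klrd1 were found together in 50 of 65 NK-like cells, and neither was found in 2.

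The Ly49 genes were divided among NK-like cells. Klra7 and Klra8 were found together in 8 of 65 cells, Klra7 alone in 10, Klra8 alone in 7 and neither in 40. Klra8 was found in 44.4% of 18 cells with Klra7 and in 14.9% of 47 without, at median depths of 5220 and 4899 UMIs. Klra7 and Klra8 shared no stretch of 50 bases with each other. Klra7 shared stretches with Klra13-ps only, and Klra8 with 5 genes other than Klra7. At 1000 UMIs per cell the counts were 1 of 9 and 7 of 51, so the higher share of cells with both was not seen at that depth. Klra7 was found in 7 of 40 NK-like cells with Klrc1 (17.5%) and in 11 of 25 without (44.0%), at similar median depths of 4942.5 and 4768 UMIs. After thinning these counts were 1 of 23 and 8 of 37, in the same direction, and the depths before thinning were then 3609 and 5651 UMIs. Klra8 was found in 6 of 40 cells with Klrc1 (15%) and 9 of 25 without (36.0%). Ncr1 went with Klrc1, which was found in 74.4% of 39 cells with Ncr1 and 42.3% of 26 without, but the depths of these cells differed, at 5594 and 3396.5 UMIs.

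**Figure D3:**
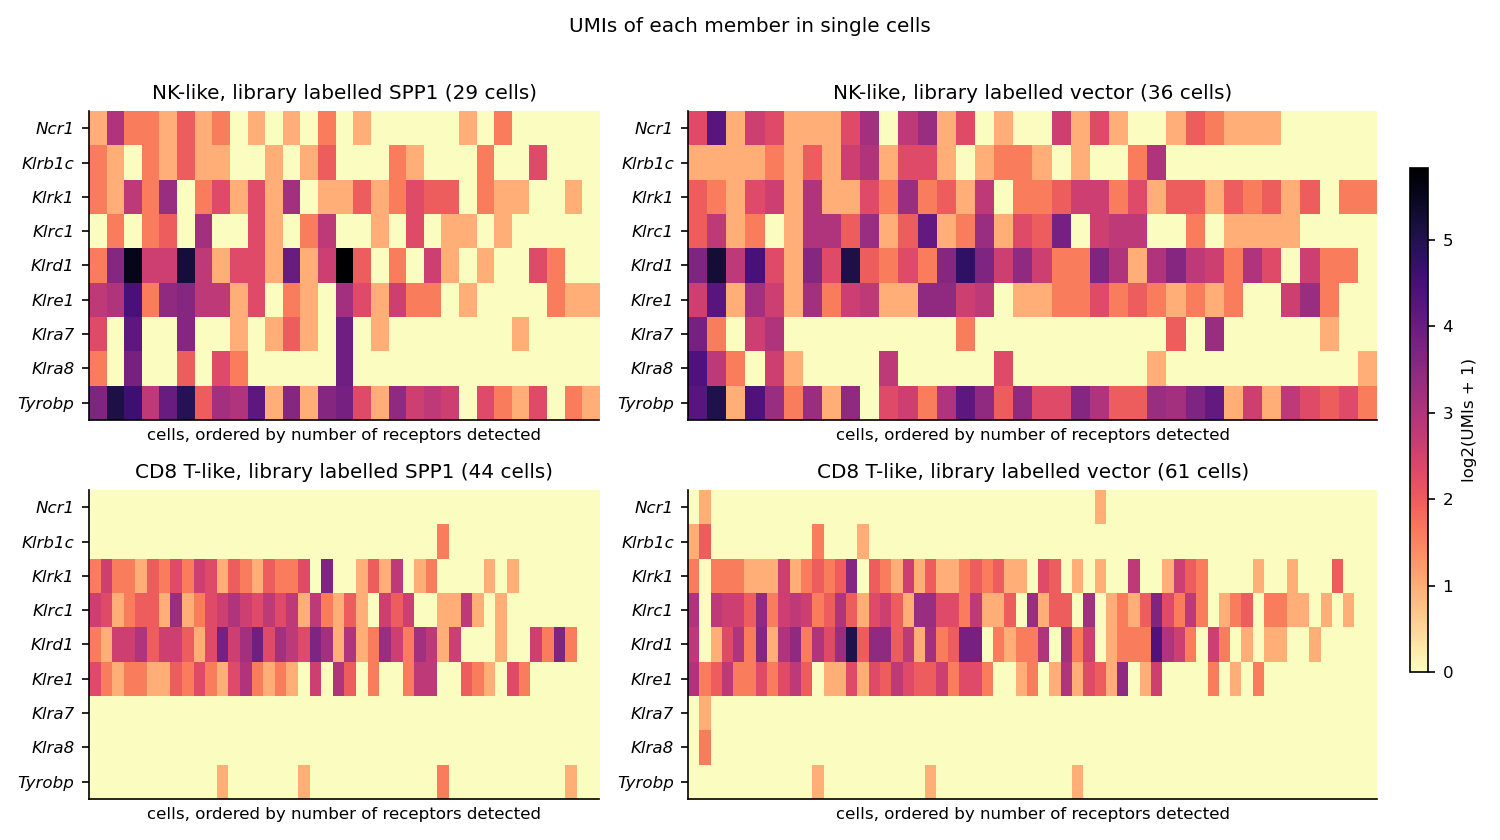
UMIs of each member (rows) in single cells (columns, ordered by the number of receptors detected), as log2(UMIs + 1), for NK-like and CD8 T-like cells of the libraries labelled SPP1 and vector. Klra7 and Klra8 are detected in few NK-like cells, and Tyrobp is detected in nearly all NK-like cells and in 4 and 3 CD8 T-like cells.

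The libraries were then compared within NK-like cells. In the library labelled SPP1 the 3 deepest of these cells held 32638, 30715 and 15171 UMIs, beside a class median of 3726. In the library labelled vector the 3 deepest held 26928, 11689 and 11565 UMIs, beside a median of 5434. Such cells weigh strongly in every summed level of the class. A setting without the deepest cells was not run. Of the 9 members, 4 were past 1.5-fold, Klra7 (1 member) being higher in the library labelled SPP1 and Ncr1, Klrc1 and Klrb1c (3 members) lower. Of 3295 genes with at least 20 UMIs in these cells 33.6% were past that fold either way, 13.3% higher and 20.4% lower. With 9 members, 4 past the fold is not far from that background. The median log2 ratio, SPP1 over vector, was -0.10 over the members and -0.09 over all genes.

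Ncr1 had a log2 ratio of -1.41 (-2.09 to -0.77), from the 151 and 399 CPM given above, with an interval that excluded 0. Every other setting kept it lower and past 1.5-fold, between -1.65 and -0.74. The value of -0.74 was that at 1000 UMIs per cell, where Ncr1 had a UMI in 4 of 24 and 9 of 36 cells. That value thus rests on few UMIs. A set of T and NK cells left out of the class because they carried markers of the large compartment held 26 Ncr1 UMIs in 25 cells of the library labelled SPP1 and 4 in 47 cells of the library labelled vector, at median depths of 10828 and 2828 UMIs. Counted as NK-like, they brought the log2 ratio of Ncr1 to -0.88 (-1.39 to -0.38), and that of all kept cells was -0.89 (-1.38 to -0.42). NK-like cells held 46.6% of all Ncr1 UMIs of the library labelled SPP1 and 80.7% of those of the library labelled vector.

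Klrc1 had a log2 ratio of -1.38 (-1.96 to -0.83) in NK-like cells, with a UMI in 44.8% of cells of the library labelled SPP1 and 75% of those of the library labelled vector. The 3 deepest cells of the library labelled SPP1 held 0, 0 and 2 Klrc1 UMIs, and the ratio without them was not computed. Klrc1 stayed past 1.5-fold in all 10 other settings, which include a mean over cells. At 1000 UMIs per cell these shares were 37.5% and 38.9%, so the difference in detection was not seen at equal depth. The ratio of levels was -0.76 at that depth, from only 9 of 24 and 14 of 36 cells with a UMI. A cell with Klrc1 held on average 2.77 UMIs of it in the library labelled SPP1 and 4.26 in the library labelled vector. In CD8 T-like cells Klrc1 was also lower, at -0.65 with an upper limit of -0.30, which was the 1 of 4 measured members past 1.5-fold there, beside 27.3% of 3314 genes either way and 14.9% lower. The other 5 members had under 20 UMIs in CD8 T-like cells. Klre1 was -0.43 (-0.84 to -0.02), Klrd1 -0.24 (-0.52 to 0.04) and Klrk1 -0.15 (-0.60 to 0.29) in these cells.

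Klrb1c, with a log2 ratio of -0.67 (-1.43 to 0.05) in NK-like cells, had an interval that included 0, and at 1000 UMIs per cell its ratio was 0.36 from 6 and 7 UMIs. Klra7 had a log2 ratio of 0.66 (0.05 to 1.28). It was 0.84 with the mixed cells counted as NK-like and 0.80 without the 3 highest cells of each library, and -0.22 at 1000 UMIs per cell from 4 and 7 UMIs. Klrk1, at -0.35 (-0.83 to 0.12), was 1.30 at 1000 UMIs per cell, so no direction can be given for it. Klrd1 at -0.10 (-0.36 to 0.16), Klre1 at -0.03 (-0.42 to 0.35), Klra8 at 0.02 (-0.64 to 0.67) and Tyrobp at 0.15 (-0.11 to 0.41) had intervals that included 0. These values also moved with the setting. Klrd1, with 63.9% and 34.0% of its UMIs in the 3 highest cells, was -0.42 (-0.81 to -0.03) without them and -0.92 as a mean over cells. At 1000 UMIs per cell Klrd1 was -0.70 (23 and 56 UMIs), Klre1 -0.70 (9 and 22 UMIs), Klra8 -1.32 (4 and 15 UMIs) and Tyrobp -0.47. The 8 receptors together were 3144 and 3881 CPM in NK-like cells (-0.30, -0.46 to -0.15) and 2577 and 3370 CPM in CD8 T-like cells (-0.39, -0.56 to -0.22), and the share of these UMIs in the 3 highest NK-like cells was 47.1% and 23.6%. Over all T and NK-like cells outside the mixed set the sum was 2569 and 2678 CPM (-0.06, -0.16 to 0.04). The lower sum was thus not seen over these cells as a whole. In the remaining T and NK-like cells the sum was 2377 and 1938 CPM. In the mixed T and NK cells it was 1163 and 506 CPM, also higher in the library labelled SPP1.

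**Figure D4:**
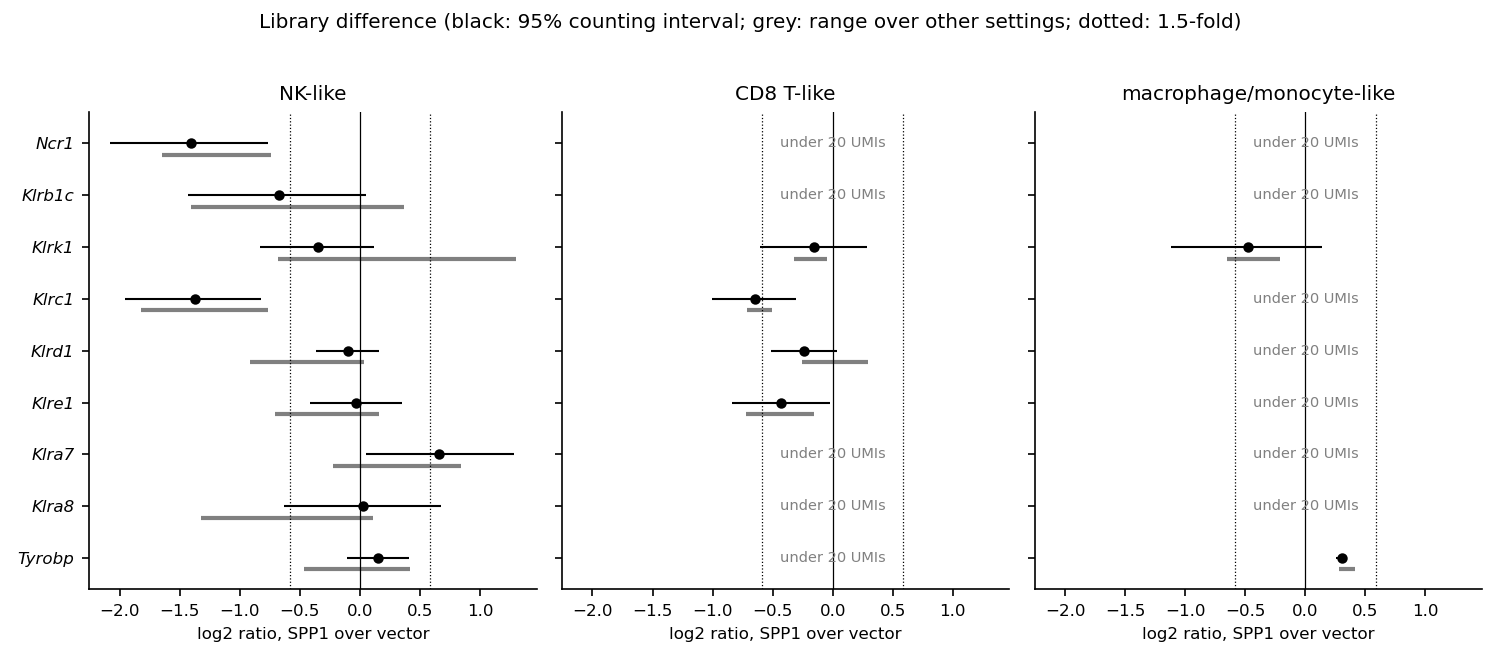
Log2 ratio, SPP1 over vector, of each member in NK-like, CD8 T-like and macrophage/monocyte-like cells, with the 95% counting interval in black, the range over other settings in grey and 1.5-fold as dotted lines. Ncr1 and Klrc1 stay left of the line in NK-like cells, and Tyrobp in macrophage/monocyte-like cells is 0.30 with a narrow interval.

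The partners of the members were read as lists in the same NK-like cells. For every list there, the background over all measured genes was 33.6% past 1.5-fold either way. Of these genes 13.3% were higher and 20.4% lower, and the median log2 ratio was -0.09. Of 4 signalling adaptors, all measured, none was past 1.5-fold higher and 1 lower, with a median log2 ratio of 0.11. Fcer1g was 2161 and 2056 CPM (0.07, -0.13 to 0.27) and Hcst, the partner of NKG2D, was 89.3 and 186 CPM (-1.06, -1.99 to -0.19). Cd247 was 78.2 and 68.1 CPM. Of 14 signalling and inhibitory genes downstream, 7 were measured, none higher and 1 lower, with a median of -0.33. That one was Ptpn6, the phosphatase of the inhibitory motif, at 33.5 and 95.3 CPM (-1.51, -3.11 to -0.15), from 6 and 21 UMIs.

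Of 24 other NK cell receptors 14 were measured, 3 higher and 3 lower, with a median of -0.21. Cd226, an activating receptor also known as DNAM-1, was 140 and 336 CPM (-1.27, -1.98 to -0.60), and Klrb1a, a relative of Klrb1c, was 61.4 and 145 CPM (-1.24, -2.38 to -0.22). Klrg1, an inhibitory receptor for cadherins, was 151 and 86.3 CPM (0.81, -0.09 to 1.73). Among NK cell effector and identity genes, which named the cells in part, 13 were measured, 5 higher and 2 lower, with a median of 0.18. Gzmb, a killing protease, was 3903 and 2029 CPM (0.94, 0.77 to 1.12) and Prf1, the pore-forming protein, 1463 and 731 CPM (1.00). Ccl5, a chemokine, was 620 and 295 CPM (1.07). The T-box factors of NK cells, named after their values were seen, were 302 and 145 CPM for Eomes (1.05) and 173 and 354 CPM for Tbx21 (-1.03). Of the genes of the ligands, 6 were measured with 1 higher and 1 lower, and H2-K1, a class I molecule read by Ly49 receptors, was 1765 and 2837 CPM (-0.69, -0.88 to -0.49).

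In CD8 T-like cells 27.3% of all measured genes were past 1.5-fold either way and 14.9% lower, with a median log2 ratio of -0.03. Of the adaptors 3 were measured, with 1 lower. Fcer1g was 205 and 411 CPM (-1.01). Of the downstream genes 8 were measured, 1 higher and 4 lower, with a median of -0.49. Among these 8, the interval lay above 0 for 1 gene and below 0 for 1. Of the other receptors 8 were measured and 3 were higher, among them Klrh1 at 459 and 284 CPM (0.69). Of the NK cell effector and identity genes 12 were measured, 2 higher and 2 lower, with a median of -0.04. Gzmb was 1410 and 4202 CPM in these cells (-1.58), and Xcl1, a chemokine that attracts dendritic cells, was 951 and 113 CPM (3.08), with its UMIs in 8 of 44 and 6 of 61 cells. In NK-like cells Xcl1 was 843 and 1734 CPM (-1.04), in 14 of 29 and 25 of 36 cells.

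In macrophage/monocyte-like cells Tyrobp was 1299 CPM (1269 to 1330) in the library labelled SPP1 and 1055 CPM (1030 to 1079) in the library labelled vector, a log2 ratio of 0.30 (0.25 to 0.35). It was found in 98.3% and 96.1% of cells, and in 69.4% and 60.3% at 1000 UMIs per cell. The median cell held 1267 CPM (865 to 1730 between the quartiles) and 985 CPM (640 to 1376), so the distributions overlapped widely. Neither of the 2 measured members, Tyrobp and Klrk1, was past 1.5-fold, beside 12.2% of 12025 genes. Ncr1, Klra7 and Klra8 had 0 UMIs in both libraries and the 4 other receptors had 1 to 12 UMIs per library. In dendritic cell-like cells Tyrobp was 844 and 617 CPM (0.45, 0.14 to 0.76), and the 1 of 3 measured members past 1.5-fold was Klrd1, at 85.5 and 139 CPM (-0.70, -1.65 to 0.16), beside 33.5% of genes either way and 19.5% lower.

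Macrophage markers moved with Tyrobp. Of the 12 measured markers of the macrophage list, 11 had a ratio above 0, none was past 1.5-fold higher and the median log2 ratio was 0.25. Lyz2 was 6861 and 5569 CPM (0.30), C1qa 1609 and 1142 CPM (0.50) and Csf1r 485 and 419 CPM (0.21), while Ccr2, a receptor of monocytes, was 404 and 626 CPM (-0.63). The summed list was 17421 and 14352 CPM. Its part in the Tyrobp difference was not tested. Fcer1g, the other adaptor of these cells, was 1971 and 1758 CPM (0.17). Of the receptors that use the Tyrobp product 13 were measured, and none was past 1.5-fold. Their median log2 ratio was -0.27, and 1 interval lay above 0 and 5 below, beside 12.2% and 12.7% of all genes in these cells. Trem2, a lipid receptor of tumour macrophages, was 180 and 151 CPM (0.25), Itgb2, an integrin chain, 303 and 403 CPM (-0.41) and Sirpb1c 138 and 185 CPM (-0.42).

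**Figure D5:**
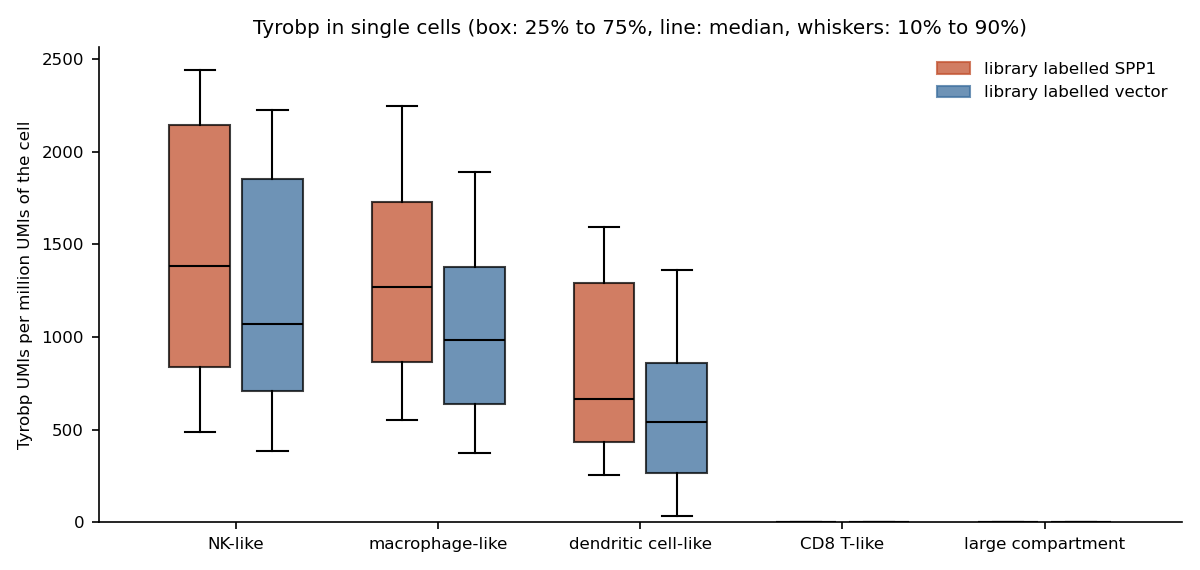
Tyrobp in single cells, in CPM of the cell, for 5 classes in the libraries labelled SPP1 and vector, with boxes from 25% to 75%, a line at the median and whiskers from 10% to 90%. Macrophage/monocyte-like cells have medians of 1267 and 985 CPM, and the boxes of the libraries overlap.

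Of the receptor members, Klrk1 and Klrd1 were measured in myeloid cells, Klrd1 in dendritic cell-like cells only. A Klrk1 UMI was present in 24 of 639 and 45 of 828 macrophage/monocyte-like cells (3.76% and 5.43%), beside 0.0868% and 0.107% in the large compartment, where cells were deeper at the median (11886 and 12313.5 UMIs, against 7775 and 8078.5). Of these Klrk1 cells, 24 of 24 and 44 of 45 had Tyrobp, 2 and 2 had another receptor member, and 0 and 1 had a Cd3 gene. The log2 ratio between the libraries was -0.48 (-1.12 to 0.14). Klrk1 made up 89.7% (75.8 to 97.1) and 84.0% (73.7 to 91.4) of the Klrk1 and Klrd1 UMIs in these cells, 58.3% and 47.1% in dendritic cell-like cells, 28.9% and 27.7% in CD8 T-like cells and 22.6% and 25.8% in NK-like cells. In dendritic cell-like cells Klrk1 was found in 45.8% and 45.7% of cells, and of the 11 and 21 cells 11 and 20 had Tyrobp, 8 and 12 had another receptor member and none had a Cd3 gene.

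Genes with the pattern most like 3 of the members were found by Pearson's r of log2(CPM + 10) over 12 points, which are 6 classes in 2 libraries that share depth and clustering, and r is given as a description. Ncr1 was most like Clnk (r = 0.976), followed by Klra7 (0.971) and Klrb1c (0.960), then Pkp2 and Ldb2. In NK-like cells Pkp2 was only 22.3 and 18.2 CPM and Ldb2 5.58 and 4.54 CPM, where 3 counts are 16.8 and 13.6 CPM. The places of Pkp2 and Ldb2 thus rest on few UMIs. Clnk was 324 and 295 CPM in NK-like cells, and 0 and 29.4 CPM in CD8 T-like cells. Klrk1 was most like Klrd1 (0.986), followed by Chn2 (0.965), Cd244a (0.960) and Klri2 (0.959). Tyrobp was most like Lrmda (0.985), which was 262 and 159 CPM in NK-like, 16.6 and 14.7 CPM in CD8 T-like and 434 and 474 CPM in macrophage/monocyte-like cells, followed by Sh2d1b1 (0.960), Plcg2 (0.947), Naip5 (0.943) and Sdf2l1 (0.939).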

How the data were processed

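The authors deposited whole-number UMI counts for each gene in each barcode, and the values were whole with unequal totals, as raw counts are. Cell Ranger 2.1.1 and the build GRCm39 are named in the submitters' processing notes. The sources used here do not give the library chemistry, annotation release, cell calling or treatment of doublets and free RNA. Groups came from the labels. The members and gene lists were chosen with earlier results of these data known.

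Kept cells had 300 or more genes, 500 or more UMIs and no more than 15% mitochondrial UMIs (13956 in the library labelled SPP1 and 14243 in the library labelled vector). Doublets were predicted by Scrublet's method, written anew (2 simulated per cell, rate 0.06, Otsu's threshold), and 386 (2.77%) and 319 (2.24%) were removed. Clustering used 2000 variable genes without the members and other Klr genes, 30 components, 20 neighbours and the Leiden method at resolution 1, and T and NK-like cells were clustered again on 15 components. A name needed at least 3 raised markers (10 CPM, log2 ratio of at least 1), 50% of the list and, among all cells, a mean log2 ratio of at least 2. Sub-clusters of T and NK-like cells did not need that mean (1.61 for the NK-like one), and a name there was not given where the list of a different kind of cell also passed. Clusters whose Hmga2, Sox9, Tafa1 and Hoxa9 reached 0.25 of the level in the large compartment formed a mixed set (368 and 400 cells). The T and NK-like cluster as a whole, at 0.25, and the stromal one were exempt, and for T and NK-like cells the rule was applied to the sub-clusters. Clusters without a name under 0.5 of the library's median UMIs formed a low-UMI set (1955 and 2097 cells). These thresholds were set after the data were seen.

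Per class, UMIs were summed per library. CPM has exact Poisson intervals, shares exact binomial (Clopper-Pearson) ones and log2 ratios exact conditional binomial ones, at 95% and for counting error only. A count of 0 was bounded by 3 counts. Thinning to 1000 UMIs left out 5 and 0 NK-like cells. Ratios were read for genes with at least 20 UMIs, and 1.5-fold was the threshold. All 9 members are named, with up to 4 genes per list, the 5 genes most like Ncr1, Klrk1 and Tyrobp (1 of them is not reported here), and markers where a class is checked. No test was possible with 1 library per group. The scripts were tested on simulated data and used Python 3.11.15, numpy 2.4.6, scipy 1.17.1, scikit-learn 1.9.0, igraph 0.11.9 and leidenalg 0.10.2. The transcripts were GENCODE vM21 and the promoters RefSeq GRCm38.p6.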

Additional observations from a re-analysis of the deposited data

How the results depend on the processing

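In NK-like cells, 83 of 100 values of member ratios under other settings moved by less than their counting interval, 15 moved more and 2 changed sign from a ratio past 1.5-fold. These 2 were Klrb1c at 0.36 and Klra7 at -0.22, both at 1000 UMIs per cell, from 6 and 7 and from 4 and 7 UMIs. Ratios under 1.5-fold kept their sign in 9 of 10 settings for Klrd1, 8 for Klrk1 and Tyrobp, 6 for Klre1 and 4 for Klra8. Tyrobp in NK-like cells was -0.43 at a sub-clustering resolution 0.5 higher, which left 13 and 12 cells, 0.41 without the 3 highest cells of each library and -0.47 at 1000 UMIs per cell. The receptor sum was -0.48 as a mean over cells. Ncr1 lay between -1.65 and -0.74 and Klrc1 between -1.82 and -0.76, the smaller change of each being that at 1000 UMIs per cell, from few cells. In CD8 T-like cells 43 of 45 values held and Klrc1 lay between -0.71 and -0.51. In macrophage/monocyte-like cells 28 of 30 held, and Tyrobp was 0.35 as a mean over cells and 0.41 at 1000 UMIs per cell. The share of NK-like cells with at least 2 receptors became 100% in the library labelled SPP1 with a stricter cell filter and 34.5% at 500 UMIs, and in the library labelled vector 62.7% with the mixed cells counted (an alternative chosen after seeing the data), 77.8% at 1000 UMIs and 58.3% at 500. For CD8 T-like cells it was 56.8% and 27.3% at 1000 and 500 UMIs in the library labelled SPP1, and 58.2% and 34.4% in the library labelled vector. Genes past the fold, 1108 in NK-like, 906 in CD8 T-like and 1465 in macrophage/monocyte-like cells, were 111, 60 and 386 with at least 100 UMIs, 7445, 7103 and 8719 with no minimum, and 402, 292 and 398 at 2-fold. No paired analysis was possible because each group has 1 library. Small NK-like and CD8 T-like classes limit every value above, and no difference could be set against a spread between mice.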
